A study of Mus musculus with 3 samples.

Results

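The 10 Sox genes described here are Sox2, Sox4, Sox5, Sox6, Sox7, Sox9, Sox11, Sox13, Sox17 and Sox21, and every H3K27ac peak within 100 kb of their gene bodies (GRCm38) was taken, 57 of 37765 peaks from untreated and 51 of 38793 from post-caerulein spheroids. The genes were listed by name among 21883 protein-coding genes, with earlier results of these data known, and their peaks were taken by position alone. H3K27ac, acetylation of histone H3 at lysine 27, marks active promoters and enhancers. Chromatin from pancreatic spheroids, three-dimensional cultures of epithelial cells taken from wild-type C57BL/6J mice, was immunoprecipitated for the mark and sequenced. One group of spheroids came from untreated mice and the other from mice after treatment with caerulein, a cholecystokinin analogue that causes pancreatitis. Both were grown in the same medium, which contained EGF, hydrocortisone, cholera toxin and bovine pituitary extract. The age of the mice, the number of mice per culture and the time between treatment and culture are not stated in the labels used here. There was, for each condition, 1 H3K27ac library with 1 peak list, so nothing below has a replicate check or a p-value, and the sequencing depth is unknown.

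Sox proteins are transcription factors that bind the minor groove of DNA through an HMG box, and the family is divided into lettered groups by the sequence of that box. Sox9, of group E, maintains the progenitors of the embryonic pancreas and stays on in adult duct cells. Sox17 and Sox7, of group F, are known from endoderm and blood vessels, Sox4 and Sox11 form part of group C, and Sox5, Sox6 and Sox13 are group D proteins that lack a transactivation domain of their own. Sox2, of group B, is the pluripotency and foregut factor, and Sox21 is a repressor of the same group. The comparison asks how H3K27ac around these genes differs in epithelium that has been through caerulein.

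At the level of gene bodies the marked set was nearly common to both conditions. A peak overlapped the body of 7 of the 10 genes in both lists (Sox4, Sox5, Sox6, Sox9, Sox13, Sox17 and Sox21) and the body of Sox7 in the post-caerulein list alone. Among the 13318 protein-coding genes with a peak over the body in either list, 3.24% had one in the post-caerulein list alone and 2.39% in the untreated list alone. Sox2 and Sox11 had no peak within 100 kb in either list, as did 16.2% of protein-coding genes. The nearest peaks to Sox11 lay 148.4 kb away in both lists. The nearest to Sox2 lay 567.8 kb away in untreated and 100.17 kb away in post-caerulein spheroids, just beyond the 100 kb limit. The peaks just inside the limit were a shared pair near Sox21, 99.96 kb (untreated) and 99.92 kb (post-caerulein) away, which lay over the gene Tgds.

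Promoter sequences were available for 7 of the 10 genes, with 12 entries in all (RefSeq, GRCm38.p6), and not for Sox7, Sox9 and Sox17. A peak of both lists overlapped 4 entries, 1 each for Sox4, Sox6, Sox13 and Sox21, against 40.8% of 32851 entries of all genes. The 250 bases before the start are shown 5' to 3' for these and for Sox2, whose promoter lay under no peak, with each CpG in capitals, because marked and unmarked promoters of all genes differed in CpG content. The intervals, all on the minus strand except that of Sox2, are chr13:28953700-28953949 for Sox4, chr7:116031048-116031297 for Sox6, chr1:133424213-133424462 for Sox13, chr14:118237031-118237280 for Sox21 and chr3:34649745-34649994 for Sox2.
Sox4: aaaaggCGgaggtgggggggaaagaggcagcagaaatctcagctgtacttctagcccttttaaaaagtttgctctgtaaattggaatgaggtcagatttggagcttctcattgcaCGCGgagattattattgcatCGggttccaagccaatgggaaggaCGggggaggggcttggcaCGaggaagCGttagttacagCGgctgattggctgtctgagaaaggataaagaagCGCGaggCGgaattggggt
Sox6: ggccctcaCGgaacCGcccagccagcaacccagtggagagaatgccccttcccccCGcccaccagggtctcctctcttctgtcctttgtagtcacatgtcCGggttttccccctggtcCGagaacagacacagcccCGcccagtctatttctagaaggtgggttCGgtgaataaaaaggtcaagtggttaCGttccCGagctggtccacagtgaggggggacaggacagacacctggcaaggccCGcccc
Sox13: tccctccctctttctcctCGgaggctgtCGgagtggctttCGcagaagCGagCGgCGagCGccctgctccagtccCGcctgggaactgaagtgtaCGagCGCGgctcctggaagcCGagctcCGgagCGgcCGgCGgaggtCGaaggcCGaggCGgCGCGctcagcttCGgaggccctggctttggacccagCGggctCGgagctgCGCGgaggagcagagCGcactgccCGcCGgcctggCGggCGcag
Sox21: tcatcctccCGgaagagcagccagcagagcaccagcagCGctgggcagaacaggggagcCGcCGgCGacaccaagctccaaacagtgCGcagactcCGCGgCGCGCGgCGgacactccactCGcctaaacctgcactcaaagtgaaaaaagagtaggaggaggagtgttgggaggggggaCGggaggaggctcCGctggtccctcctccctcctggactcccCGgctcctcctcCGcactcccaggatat
Sox2: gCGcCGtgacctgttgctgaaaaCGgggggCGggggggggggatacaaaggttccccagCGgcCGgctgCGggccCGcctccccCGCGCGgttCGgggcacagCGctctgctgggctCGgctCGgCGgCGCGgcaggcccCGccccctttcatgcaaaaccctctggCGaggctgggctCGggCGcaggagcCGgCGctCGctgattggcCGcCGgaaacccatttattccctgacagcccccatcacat

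The 4 marked promoters held 11 (Sox4), 10 (Sox6), 31 (Sox13) and 17 (Sox21) CpGs, and their GC content was 50.8%, 60.8%, 72.4% and 65.2%. Over all entries the median was 16 CpGs and 60.0% GC for those under a peak of both lists, and 3 CpGs and 47.6% GC for those under none. The unmarked promoters of Sox2 (27 CpGs, 72.0% GC) and Sox11 (17 CpGs, 58.0% GC) were therefore as rich in CpG as marked ones. The only Sox5 entry held 3 CpGs, and the other 5 of Sox6 held 1 to 9. That Sox5 entry starts at 143947106, inside the gene (143828425 to 144782287, minus strand), and not at the gene's upstream end. The letters of the Sox core ACAAT, searched on both strands, were in 4 of the 12 entries, all unmarked (that of Sox5 and 3 of Sox6), and in 27.7% of all entries. The related ACAAAG was in 6 of the 12, that of Sox2 and 5 of the 6 of Sox6, the marked one included, and in 16.5% of all entries. The letters CCAAT were in 5 of the 12, 4 times in the Sox4 promoter, and in 33.8% of all entries. The AP-1 motif TGANTCA was in none of the 12 entries and in 6.75% of all. The letters TATAAA were in 1 of the unmarked Sox6 entries and in 12.4% of all. None of these motifs contains another, and these are matches of letters, not sites.

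Covered length, the number of bases under peaks, gave the size of each domain. Over the 10 genes with 100 kb on each side it summed to 181.9 kb in untreated and 126.5 kb in post-caerulein spheroids, although the peaks of the whole genome covered 134.6 and 140.4 Mb. The log2 ratio of the sums (post-caerulein over untreated) was -0.52, and -0.28 without Sox13. Of the 8 genes with any peak, Sox6, Sox13 and Sox17 were covered 1.5-fold or more less after caerulein, where 6.00% of 18328 protein-coding genes with a peak in their window were. Sox9 was covered 1.5-fold or more further after caerulein, where 6.25% of those genes were. For each gene the ratio was computed with 1 kb added to both lengths. The median log2 ratio (post-caerulein over untreated) was -0.28 over the 8 Sox genes and 0.01 over all tested genes. Nearest to the limit of 1.5-fold were Sox17 inside it (1.58-fold) and Sox4 outside (1.29-fold).

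**Figure D1:**
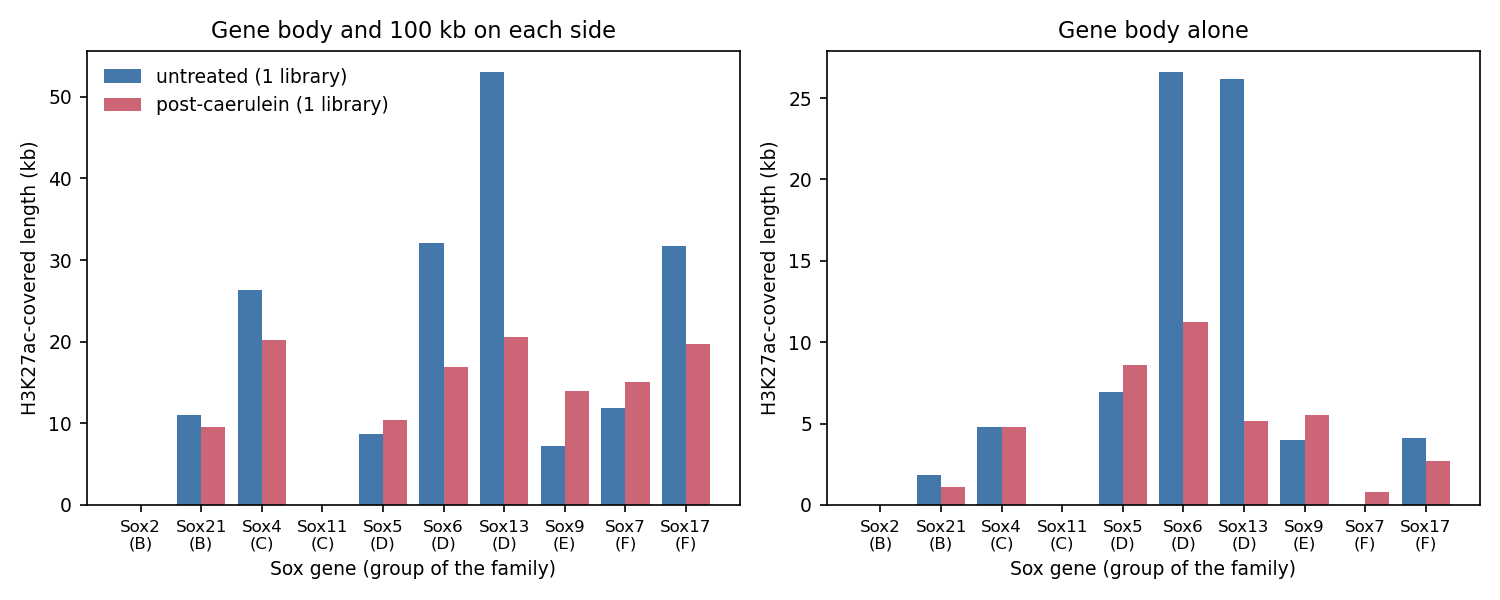
H3K27ac-covered length (kb) of the 10 Sox genes in the untreated and the post-caerulein library, 1 bar per library with no error bars, over the gene body with 100 kb on each side (left) and over the body alone (right); letters are the groups of the family. Sox13 is at 53.0 kb (untreated) and 20.6 kb (post-caerulein) and Sox9 at 7.22 and 13.97 kb, whereas Sox2 and Sox11 are at 0 in both.

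**Figure D2:**
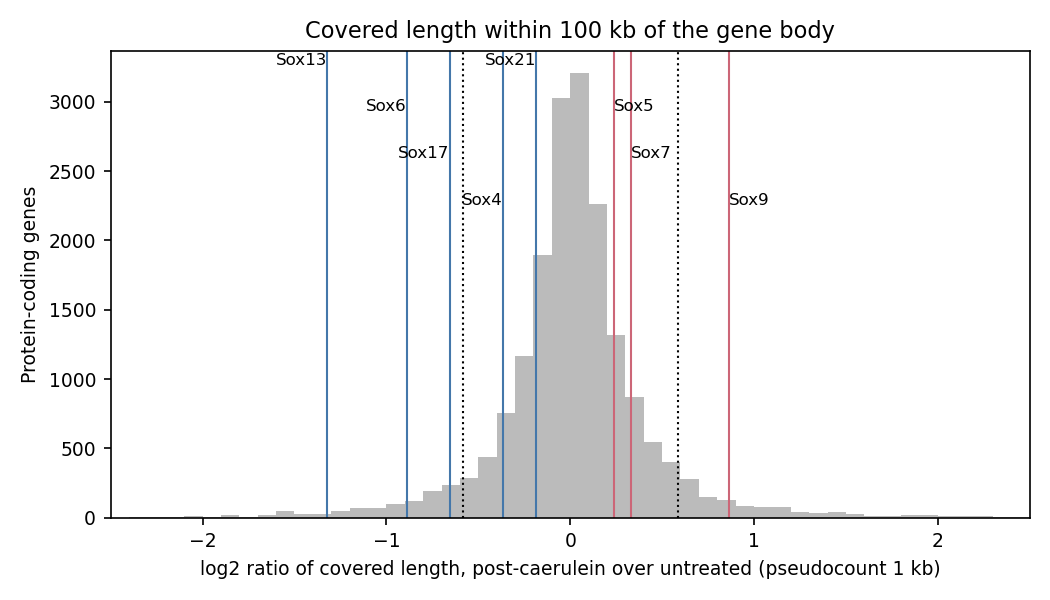
Histogram of the log2 ratio of covered length (post-caerulein over untreated, 1 kb added to both) within 100 kb of each of 18328 protein-coding genes, with genes beyond the axis not shown, a line for each of the 8 Sox genes that have a peak and dotted lines at 1.5-fold. Sox13, Sox6 and Sox17 lie beyond the left dotted line and Sox9 beyond the right one.

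Sox9 had the wider domain after caerulein. Its gene (chromosome 11, 112782210 to 112787757) stands alone, with no other protein-coding gene within 100 kb. In untreated spheroids 1 peak of 5124 bp covered 3.997 kb of the body. In post-caerulein spheroids 1 peak of 9768 bp covered the whole body, 5.548 kb, and ran beyond both ends. Its score, the authors' own value per peak and not comparable between lists, was 435.24 in the untreated list, whose median was 681.38, and 3100 in the post-caerulein list, whose median was 526.37. Scores pile up at 3100: 5828 post-caerulein and 8440 untreated peaks were at or above it. A peak 68 kb on the higher-coordinate side was 2094 bp wide in untreated and 2810 bp wide in post-caerulein spheroids. Between them lay a weak peak of 1391 bp, score 80.88, found in the post-caerulein list alone, 22.3 kb from the gene. The window as a whole was covered for 7.22 kb (untreated) and 13.97 kb (post-caerulein), 1.82-fold more with 1 kb added to both.

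The 2 group F genes went different ways. At Sox17 (chromosome 1, 4490928 to 4497426) all 7 regions matched between the lists were narrower after caerulein. The peak over the gene was 6562 bp in untreated and 2705 bp in post-caerulein spheroids. On the lower-coordinate side, 15 to 18 kb away, 1 untreated peak of 5871 bp faced 2 post-caerulein peaks of 2569 and 1175 bp. On the other side, an untreated peak of 5557 bp faced 2 of 2003 and 1818 bp, and its neighbour of 4552 bp faced 1 of 3535 bp. The domain thus kept its positions and was shorter or broken up at each of them. Only 1 weak untreated peak (1595 bp, score 110.1) was without a counterpart. The window was covered for 31.7 kb in untreated and 19.7 kb in post-caerulein spheroids.

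At Sox7 (chromosome 14, 63943706 to 63950732) no untreated peak touched the body, and the nearest lay 11.6 kb away. The post-caerulein list had a peak of 1950 bp there, over the gene end with the lower coordinate (63942549 to 63944498), with a low score of 100.65. The other 5 peaks of the window were present in both lists, and for each of them another gene was nearest (Pinx1 or 4930578I06Rik). Their widths in untreated and post-caerulein spheroids differed by less than 1.5-fold at each of the 5.

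Because Sox17 and Sox7 are also endothelial genes, endothelial markers were measured beside them. Over the same 100 kb windows, 9 of 10 endothelial markers had a peak. Of these, 3 were covered 1.5-fold or more less after caerulein and 1 as much more, where 6.00% and 6.25% of all tested genes were. The 3 were Cdh5 (1.913 kb in untreated, 0 in post-caerulein spheroids), Kdr (15.108 and 6.286 kb) and Tek (4.132 kb and 0). Cdh5 and Tek had only 1 and 2 untreated peaks in their windows. Erg was the marker covered more (33.053 and 50.787 kb), and the median log2 ratio over the 9 was -0.04. Nearer the genes, a peak within 1 kb of the body was present for 5 of 10 endothelial markers in untreated and 4 in post-caerulein spheroids, with summed covered lengths of 33.6 and 47.6 kb. Within 1 kb of the body, Cdh5, Kdr, Emcn, Cldn5 and Tie1 were at 0 in both lists, and Erg was covered for 1.502 kb in untreated and 15.144 kb in post-caerulein spheroids. All 10 duct markers were marked within 1 kb in both lists (210.7 and 191.8 kb), against 2 of 10 acinar markers, 0 of 10 endocrine and 0 of 10 mesenchymal markers in each, and 5 (untreated) and 6 (post-caerulein) of 10 immune markers. Over 100 kb windows, 8 of the 10 duct markers had more untreated-only than post-caerulein-only peaks, where 32.0% of all tested genes did. The reverse held for 1 duct marker and 35.8% of all tested genes. The sums were 29 and 8, to which Cftr (9 and 0) and Krt19 (6 and 0) gave the largest differences. Peaks in the windows of several markers were counted for each. Of these lists that of the duct, an epithelium, was the most fully marked, beside a label of pancreatic epithelial cells. The part of other cells in the Sox differences was not tested, and fewer marked cells cannot be told apart from less mark per cell.

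Within group D, Sox13 and Sox6 were covered less after caerulein and Sox5 slightly more. Sox13, first described as an islet autoantigen, showed the widest difference of the 10 genes (chromosome 1, 133382300 to 133424459, minus strand). In untreated spheroids a peak of 14281 bp lay over the promoter and the adjoining part of the body, and a second of 12390 bp (133396562 to 133408951) lay farther into the gene. In post-caerulein spheroids the first was matched by 2 peaks of 2784 bp each, 1 of them over the promoter, and the second had no counterpart. Covered length in the body was 26.2 kb in untreated and 5.16 kb in post-caerulein spheroids. The peak inside the gene was also the widest list-only peak near any of the 10 genes, with a score of 1841.74, above the median of its list.

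A further 7 untreated-only peaks lay around Sox13, at distances of 11.0 to 89.1 kb, with widths of 982 to 2008 bp and scores of 54.92 to 204.97. No post-caerulein-only peak lay in the window. Of these 7 peaks, 4 were nearest to Sox13 and 3 to Plekha6, Golt1a or Etnk2. The matched regions outside the body differed little, with log2 ratios from -0.21 to 0.19, so the difference at Sox13 lay in the gene body and in unmatched weak peaks. Over the window the covered length was 53.0 kb in untreated and 20.6 kb in post-caerulein spheroids, and within 10 kb of the gene it was 26.7 and 5.57 kb, a log2 ratio of -2.07 against -1.32 for the window.

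**Figure D3:**
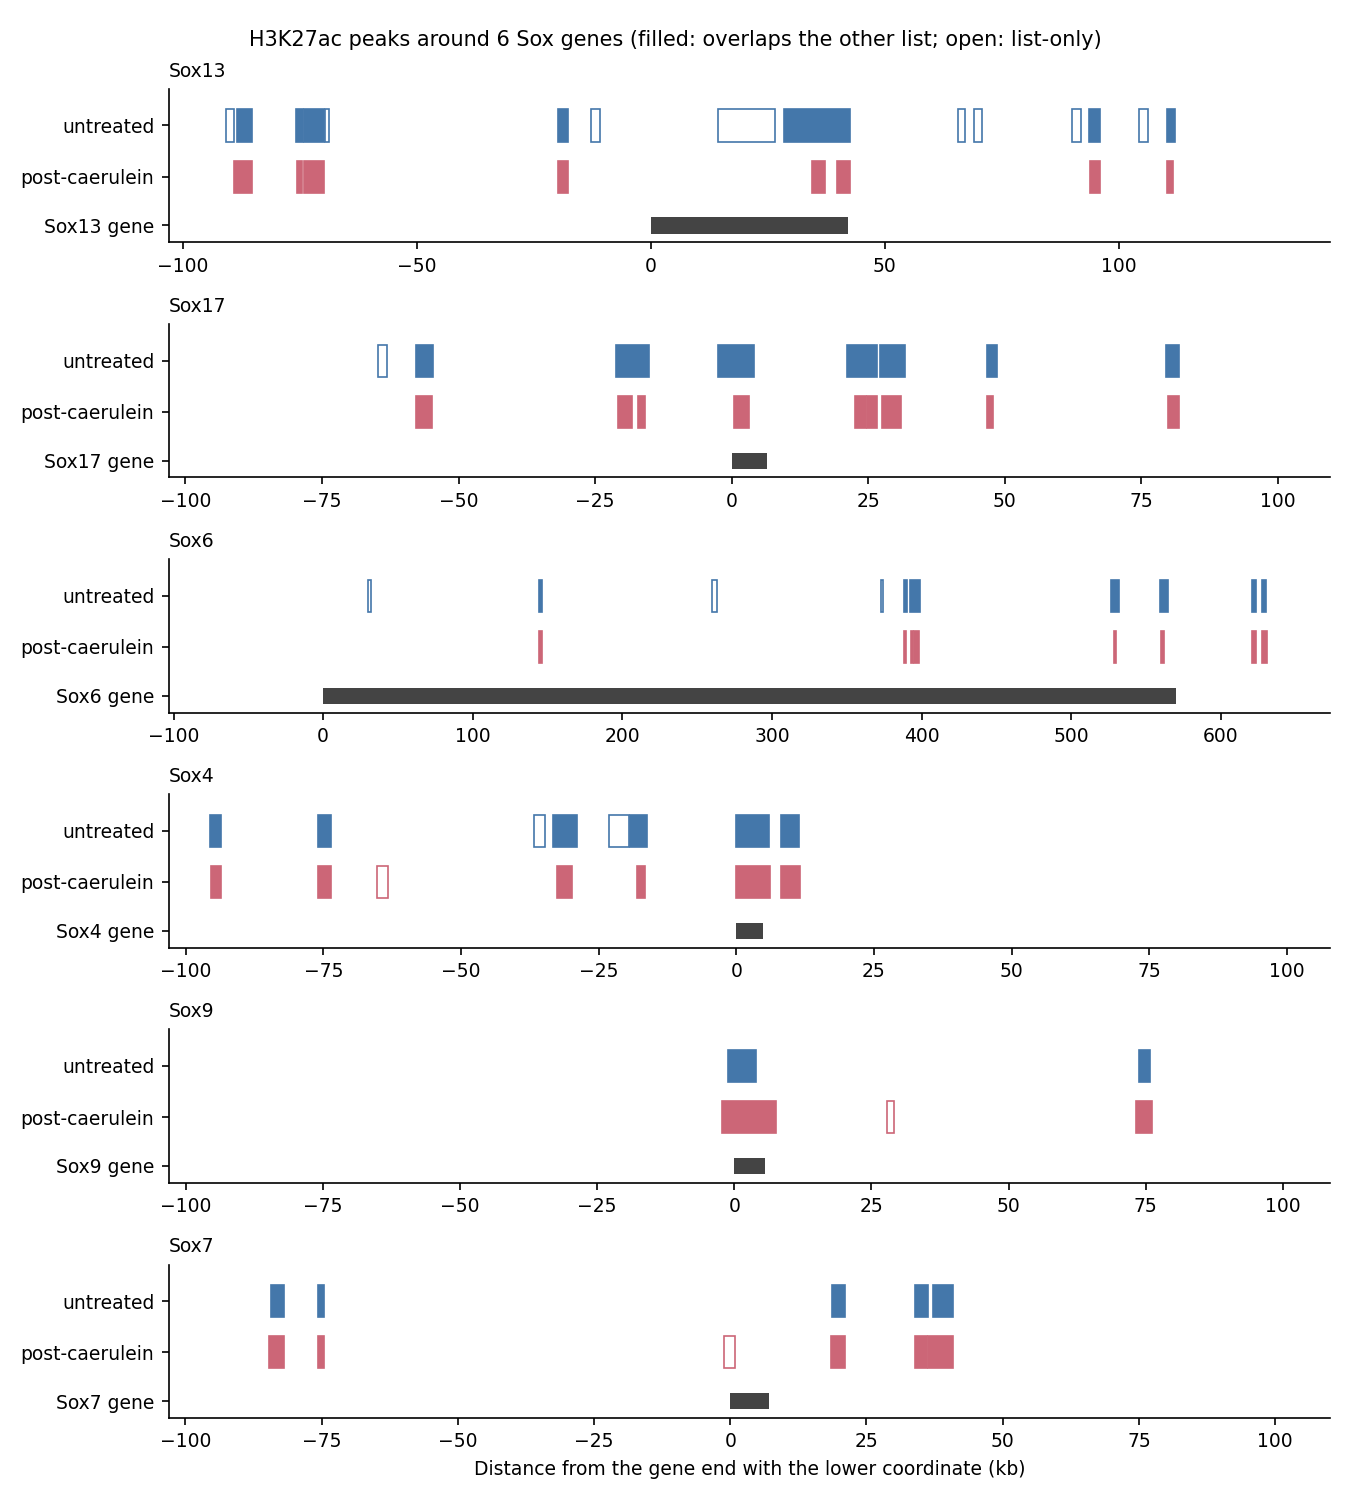
Peaks of the untreated (upper row) and post-caerulein (middle row) lists around 6 Sox genes (lower row: gene body), to scale in kb from the gene end with the lower coordinate; filled peaks overlap the other list and open peaks do not. The open untreated peak of 12390 bp within Sox13 and the shortened peaks along Sox17 face the longer post-caerulein peak over Sox9.

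Sox6, a factor of cartilage, red blood cell and muscle differentiation, spans 569.9 kb (chromosome 7, 115470872 to 116040776). In its body lay 8 untreated peaks covering 26.6 kb and 6 post-caerulein peaks covering 11.2 kb. The promoter whose sequence is printed here (start at 116031047) lay under a peak of 5053 bp in untreated spheroids. In post-caerulein spheroids a peak of 1656 bp (116031170 to 116032825, score 71.58) overlapped only part of it and did not reach the start. An internal peak farther into the gene was 5516 bp and 1306 bp wide, and an untreated peak of 6122 bp faced 2 post-caerulein peaks of 1477 and 3511 bp. The 3 untreated-only peaks of the window all lay in the body, the strongest at 115730808 to 115733876 (3069 bp, score 1277.31). The 2 regions beyond the gene, over the neighbouring gene 1110004F10Rik, were of nearly equal width in the lists, with log2 ratios of -0.02 and 0.08. The difference at Sox6 thus lay inside the gene and not at its neighbour.

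Sox5, which acts with Sox6 in cartilage, spans 953.9 kb and with its window held 4 peaks in untreated and 5 in post-caerulein spheroids. They covered 8.66 and 10.4 kb. All 3 matched regions were wider after caerulein, 1 of them by more than 1.5-fold (1189 bp against 2559 bp). An untreated-only peak of 3157 bp and 2 post-caerulein-only peaks of 1400 and 1186 bp lay at other places in the body. The only promoter entry of Sox5, which starts inside the gene, lay under no peak.

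Sox4, a factor of endocrine differentiation that is also active in many carcinomas, had the same domain at the gene in both conditions and a thinner flank after caerulein. The peak over the gene (chromosome 13, 28948919 to 28953699) was 5974 bp in untreated and 6178 bp in post-caerulein spheroids, and the peak 3.4 kb beyond it 3158 and 3533 bp. On the lower-coordinate side, 16 kb and 29 kb away, untreated peaks of 3023 and 4365 bp faced post-caerulein peaks of 1561 and 2798 bp. Untreated-only peaks of 3634 and 1960 bp lay beside these, 19.5 and 34.7 kb from the gene. A post-caerulein-only peak of 2049 bp lay 63.2 kb away. The sign of the total therefore depended on the window: the log2 ratio was -0.37 within 100 kb, -0.62 within 50 kb and 0.08 within 10 kb of the gene.

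At Sox21, a repressor gene of group B (chromosome 14, 118233233 to 118237030, minus strand), the same 5 regions were found in both lists. The peak over the promoter was 2855 bp in untreated and 1678 bp in post-caerulein spheroids. The other 4 had log2 ratios between -0.18 and 0.02, and 3 of these were nearest to Gpr180 or Tgds.

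Peaks found in 1 list alone were counted next. Of the untreated peaks near the 10 genes, 15 of 57 were untreated-only (26.3%, exact 95% binomial interval 15.5 to 39.7), against 14.3% of all untreated peaks. Of the post-caerulein peaks, 5 of 51 were post-caerulein-only (9.80%, 3.26 to 21.4), against 17.5% of all post-caerulein peaks. The intervals cover counting error alone, and peaks of one gene are not independent. Sox13 held 8 of the 15, and without it the untreated share was 7 of 42 (16.7%, 6.97 to 31.4) and the post-caerulein share 5 of 43 (11.6%, 3.89 to 25.1). By gene, 4 of 8 had more untreated-only peaks (Sox4, Sox6, Sox13 and Sox17), where 32.0% of all tested genes did, and 3 had more post-caerulein-only peaks (Sox5, Sox7 and Sox9), where 35.8% did. Most of these peaks were weak. Only 2 untreated-only peaks, in Sox13 and Sox6, and 0 post-caerulein-only peaks reached the median score of their list.

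Peaks that overlapped between the lists were compared by width. Each group of overlapping peaks was treated as 1 matched region, 42 in all near the Sox genes. After caerulein 9 of the 42 were narrower by 1.5-fold or more, where 5.52% of 30224 matched regions of the genome were. They were 3 regions at Sox17, 2 each at Sox4 and Sox6 and 1 each at Sox13 and Sox21, and 5 of the 9 lay over the gene body itself. In the other direction 2 regions, at Sox9 and Sox5, were wider by 1.5-fold or more, where 8.49% of the genome's were. Of the 42, 25 (59.5%) were narrower to any degree, against 44.2% of all matched regions. The median log2 ratio was -0.04, against 0.03 for all. The regions of Sox7 and those outside the bodies of Sox13, Sox6 and Sox21 stayed close to equal width.

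**Figure D4:**
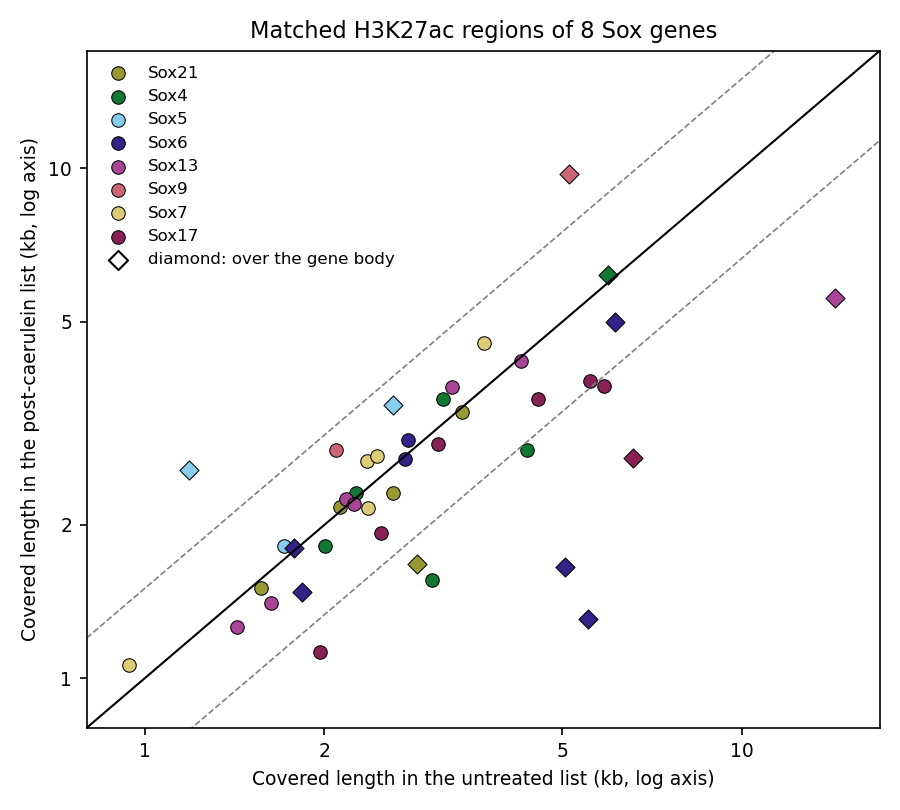
Covered length (kb, log axes) of the 42 matched regions near 8 Sox genes in the untreated (x) and post-caerulein (y) list, 1 point per region, diamonds over the gene body; the solid line is equality and the dashed lines are 1.5-fold. Diamonds of Sox13, Sox17, Sox6 and Sox21 lie below the lower dashed line, and 1 diamond each of Sox9 and Sox5 above the upper one.

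The other 10 genes of the family were mostly unmarked at the gene. A peak overlapped the body of only 1 of them, Sox12 of group C, for 0.31 kb in untreated and 2.18 kb in post-caerulein spheroids, under a peak of 1392 and of 4079 bp. Sox3 and Sry had no peak within 100 kb. Sox1 and Sox14 each had 1 untreated peak in their windows, 87.2 and 73.3 kb from the gene, and no post-caerulein peak. The Sox1 peak scored 50.09, where the lowest score of the untreated list was 50. The nearest post-caerulein peaks lay beyond the 100 kb limit, 102.3 kb from Sox1 and 142.9 kb from Sox14. Sox8, Sox10, Sox15, Sox18 and Sox30 had peaks only beyond their bodies, the nearest of each at 4.27 to 23.1 kb. Of the windows of these 5, that of Sox8 alone differed by over 1.5-fold (3.11 kb in untreated, 5.94 kb in post-caerulein spheroids). At Sox10, the neural crest factor of the group of Sox9, the window was covered for 39.7 and 48.6 kb.

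Genes that work with Sox9 in the duct and the pancreatic progenitor differed in both directions. Of 33 listed genes, 32 had a peak within 100 kb. Of these 3 were covered 1.5-fold or more less after caerulein and 5 as much more, where 6.00% and 6.25% of all tested genes were, with a median log2 ratio of 0.10. More untreated-only peaks were found at 12 genes and more post-caerulein-only peaks at 18, beside shares of 32.0% and 35.8% over all tested genes. On the untreated side the chloride channel gene Cftr (9 against 0; 59.9 kb in untreated, 25.0 kb in post-caerulein spheroids) and the keratin gene Krt19 (6 against 0; 73.8 and 53.6 kb) had the largest difference in list-only peaks. On the post-caerulein side these were Fgfr2, a receptor of FGF10 (5 against 0; 30.7 and 60.8 kb), Bicc1 (5 against 0; 30.3 and 50.4 kb) and Notch2 (5 against 0; 58.9 and 80.8 kb). The post-caerulein domain was thus longer at Sox9 and at Fgfr2, and the untreated domain longer at Cftr.

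Of 20 listed partner proteins of Sox factors, 19 had a peak within 100 kb, and the median log2 ratio was 0.03. The Wnt effector gene Lef1 was the single one covered 1.5-fold or more less after caerulein (7.31 and 4.12 kb), and 2 were covered as much more, Maf (10.6 and 25.1 kb) and Nr5a1 (8.02 and 14.2 kb). These counts of 1 and 2 stand beside 6.00% and 6.25% of all tested genes, so they are close to the background. Tcf7l2 had 4 untreated-only and 0 post-caerulein-only peaks. The coactivator genes Ep300 and Crebbp were even in list-only peaks.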

How the data were processed

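H3K27ac peak lists of 1 untreated and 1 post-caerulein spheroid library were used. An input library of untreated spheroids was not analysed here. Reads were handled with Bowtie2 2.2.6, Trimmomatic 0.38, MACS 1.4 and SAMtools on GRCm38 (mm10), per the submitters' processing notes. Caller options and control are not given in the sources used here. The authors deposited a score per peak (50 to 3233.06), which no header defines, so it served only to rank and filter within a list. The lists hold no read counts. A wider or additional peak can therefore reflect depth as well as signal, and width follows the caller's extension and merging.

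Between the lists, peaks that overlapped by at least 1 bp counted as shared, with starts moved from BED to 1-based positions. Covered length was clipped to the gene body with 100 kb on each side. Gene positions are those of RefSeq on GRCm38.p6 (21883 symbols), without exons, so exonic or intronic position was not analysed. Called means 1.5-fold or more. For genes 1 kb was added to each length first, and for matched regions nothing was added. Intervals are exact (Clopper-Pearson, 95%). The code (Python 3.11.15, pandas 2.3.3, scipy 1.17.1) was tested on simulated data. The 10 genes and the gene lists were chosen with earlier results of these data known. All 10 genes are named. Of listed genes, those with the largest difference in list-only peaks are named, and genes named for covered length alone were chosen after their values were seen.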

Additional observations from a re-analysis of the deposited data

How the results depend on the processing

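Sox6, Sox13 and Sox17 were covered 1.5-fold or more less, and Sox9 as much more, after caerulein under all 7 alternatives for covered length, with log2 ratios of -1.17 to -0.86 (Sox6), -2.07 to -1.32 (Sox13), -3.31 to -0.65 (Sox17) and 0.81 to 3.76 (Sox9). The extremes of -3.31 and 3.76 came from peaks at or above their list's median score. There Sox17 was covered for 28.1 kb (untreated) and 1.93 kb (post-caerulein), and Sox9 for 0 and 12.6 kb. The untreated peaks of Sox9 scored below that median and dropped out. The log2 ratio of Sox4 ranged from -0.62 to 0.08 and passed 1.5-fold in 1 alternative, within 50 kb. Sox7 passed 1.5-fold in 3 alternatives, up to a log2 ratio of 1.56. Among them were those limited to 10 kb or to peaks nearest to it, where the untreated length was 0. The difference between post-caerulein-only and untreated-only peaks over the 10 genes was -10. Held to peaks at or above their list's median score it was -2 (0 and 2 peaks), within 10 kb -2 (3 and 5), with peaks nearest to a Sox gene -6, and without Sox13, a choice made after seeing the data, -2 (7 untreated-only). Fewer peaks enter each of these counts. Of 112 values computed under the alternatives for the 8 genes with a peak, 86 stayed within 1.5-fold of the first value, and among genes past 1.5-fold none changed sign. These values pool covered-length ratios with differences in list-only peaks, and most of the 26 that moved were list-only differences. The list-only difference of Sox21 was 0 under every alternative. No paired analysis was possible because only 1 library stands for either condition, nor was there a replicate to leave out. Depth is unknown, and its part in the peaks of 1 list alone was not tested.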
